A study of Mus musculus with 24 samples.

Results

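The Mediator kinase module is the detachable part of the Mediator complex that carries a cyclin-dependent kinase, and 7 mouse genes encode its subunits and their paralogues: Med12, Med12l, Med13, Med13l, Cdk8, Cdk19 and Ccnc. The genes were taken by symbol, 7 of the 22609 symbols counted in each library, and all 7 were among the 16280 genes that passed the filter on low counts. They were measured by poly-A RNA sequencing in E14TG2a mouse embryonic stem cells (mESCs), a feeder-free line of the 129/Ola strain grown in serum with leukaemia inhibitory factor (LIF). Of the 8 groups, each of 3 libraries, 5 were mESCs in that medium: untransfected cells, and cells that stably carried a short hairpin called shNMC, shMed12, shCdk8 or shRing1b. The hairpin shNMC has no mammalian target, shMed12 and shCdk8 are directed at members of the module, and shRing1b is directed at Rnf2, which encodes the Polycomb protein Ring1b. The other 3 groups were shNMC, shMed12 and shCdk8 cells after 24 h in 1e-06 M all-trans retinoic acid (RA) without LIF. All groups but the untransfected cells therefore share a stable hairpin, and no clone, hairpin sequence or number of hairpins per target is named in the sources available. Nothing states that the 3 libraries of a group came from separate cultures, so the p-values below measure the spread between these libraries, which may be technical. The shMed12 and shCdk8 comparisons of a state share their shNMC libraries. The comparisons ask how far each hairpin lowered its target and whether a paralogue or another subunit moved with it. They also ask how RA without LIF acted on the same genes. No group lacked LIF without RA, so the effects of RA and of LIF withdrawal cannot be told apart. Below, RA stands for both.

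Mediator is a large coactivator that carries signals from DNA-bound factors to RNA polymerase II. Its kinase module binds reversibly and holds 4 subunits at a time: a kinase (Cdk8 or its paralogue Cdk19), cyclin C (Ccnc), a Med12 subunit (Med12 or Med12l) that activates the kinase through the cyclin, and a Med13 subunit (Med13 or Med13l) that links the module to the core. Paralogues are thought to be alternatives for 1 place in the complex, so a module is built with either member of each pair. In embryonic stem cells the module is known for roles at enhancers and developmental genes.

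The paralogues are related in protein but separable in RNA at the 50-base read length used here. No 50-base word of the annotated coding transcripts of Med12 occurred in Med12l, none of Cdk8 in Cdk19 and none of Med13 in Med13l, on either strand. The longest identical run between the coding sequences of each pair, shown here because a rise of a paralogue could otherwise be misplaced reads of its partner, was 24 bases for Med12 and Med12l, 23 for Cdk8 and Cdk19 and 20 for Med13 and Med13l. Each sequence below is written 5′ to 3′ on the coding strand (GENCODE M21 transcripts, build GRCm38), with the identical run in capitals and 12 bases of each gene on either side in lower case. Med12 (chrX:101278452-101278499, plus strand) and Med12l (chr3:59082977-59083024, plus strand) share their run in exon 11 of both genes.
Med12: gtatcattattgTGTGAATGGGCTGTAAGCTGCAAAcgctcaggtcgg
Med12l: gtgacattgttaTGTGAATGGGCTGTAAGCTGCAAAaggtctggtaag
Cdk8 (chr5:146286143-146286189, plus strand) and Cdk19 (chr10:40466673-40466719, plus strand) share theirs in exon 6.
Cdk8: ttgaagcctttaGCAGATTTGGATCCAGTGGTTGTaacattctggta
Cdk19: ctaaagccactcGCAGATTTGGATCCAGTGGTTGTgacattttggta
Med13 (chr11:86345974-86346017, minus strand) and Med13l (chr5:118671024-118671067, plus strand) share theirs in exon 3.
Med13: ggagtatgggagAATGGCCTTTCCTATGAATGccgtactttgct
Med13l: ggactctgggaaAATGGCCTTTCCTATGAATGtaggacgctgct
Words shared with other genes were fewer than 1 in 5 for every member. Of the Med12l words, 15% lie on the opposite strand in Igsf10, a counted gene that overlaps the end of Med12l, and 16.6% of the Cdk8 words also occur in the gene model Gm7107.

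The module genes are spread over 6 chromosomes (GRCm38). Med12 lies on chromosome X (101274030 to 101297465), Med12l on chromosome 3 (59005825 to 59318682), Med13 on chromosome 11 (86267033 to 86357602) and Cdk19 on chromosome 10 (40339564 to 40483818). Med13l (118560679 to 118765438) and Cdk8 (146231230 to 146302874) are both on chromosome 5, and Ccnc is on chromosome 4 (21727701 to 21759922). The submitters' build was mm9, so these positions describe the genes and were not used for counting. Med12l has the longest span, 312.9 kb, and overlaps 6 counted genes on the opposite strand.

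Depth differed between 2 sets of libraries: the untransfected cells and shRing1b held 27404360 to 34110845 gene counts each, and the other 18 libraries 37808426 to 57320128. The first 6 also differed in reads with several alignments (20.0% to 21.7% of all reads against 44.1% to 49.1%), so they are set apart from the rest, and shRing1b was compared with untransfected cells. Within that set, library 3 of shRing1b went against its label: Rnf2 stood at 52.4, 64.2 and 207 CPM (counts per 1000000 of the TMM-scaled library total) in shRing1b libraries 1, 2 and 3, against 221, 303 and 262 CPM in untransfected cells. Pluripotency markers were present in all mESC libraries, with a summed level of 10 genes of 3546 to 6236 CPM, and all 7 genes of a retinoic acid response list rose after RA in each of the 3 lines. In these bulk libraries, fewer cells of a type and less RNA per cell cannot be told apart.

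In control cells Med12l stood apart from the other members by its low level. Compared per kilobase of exon, Med13l was highest in shNMC mESCs at 25.5 ± 0.52 CPM per kb (mean ± SD, n = 3), followed by Ccnc at 21.9 ± 2.1, Med13 at 20.1 ± 1.0, Med12 at 18.9 ± 0.78, Cdk8 at 17.7 ± 1.0 and Cdk19 at 13.1 ± 1.3 CPM per kb. Med12l stood far below at 0.612 ± 0.13 CPM per kb. The ranges of Ccnc and Med13, of Med13 and Med12, and of Med12 and Cdk8 overlapped, so these neighbours in the order do not differ beyond their spread, while Med13l, Cdk19 and Med12l stood clear of their neighbours. In reads not divided by length, Cdk19 at 76.1 CPM stood above Cdk8 at 53.4 CPM in the same cells. Med12l was the lowest member per kilobase in each of the 8 groups, from 0.612 CPM per kb in shNMC mESCs to 2.84 CPM per kb in shMed12 mESCs. Across groups the mean CPM of Cdk8 varied by 5.78-fold, of Med12l by 4.64-fold and of Med12 by 3.21-fold, and of Med13l, Ccnc, Cdk19 and Med13 by 1.6-, 1.5-, 1.44- and 1.33-fold. Between shNMC and untransfected mESCs edgeR called 0.00614% of genes, 1 in all (608 at an unadjusted p under 0.05, and 1 by DESeq2). No member was called or had an unadjusted p under 0.05, and the log2 differences of the members ran from -0.08 to 0.03.

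**Figure D1:**
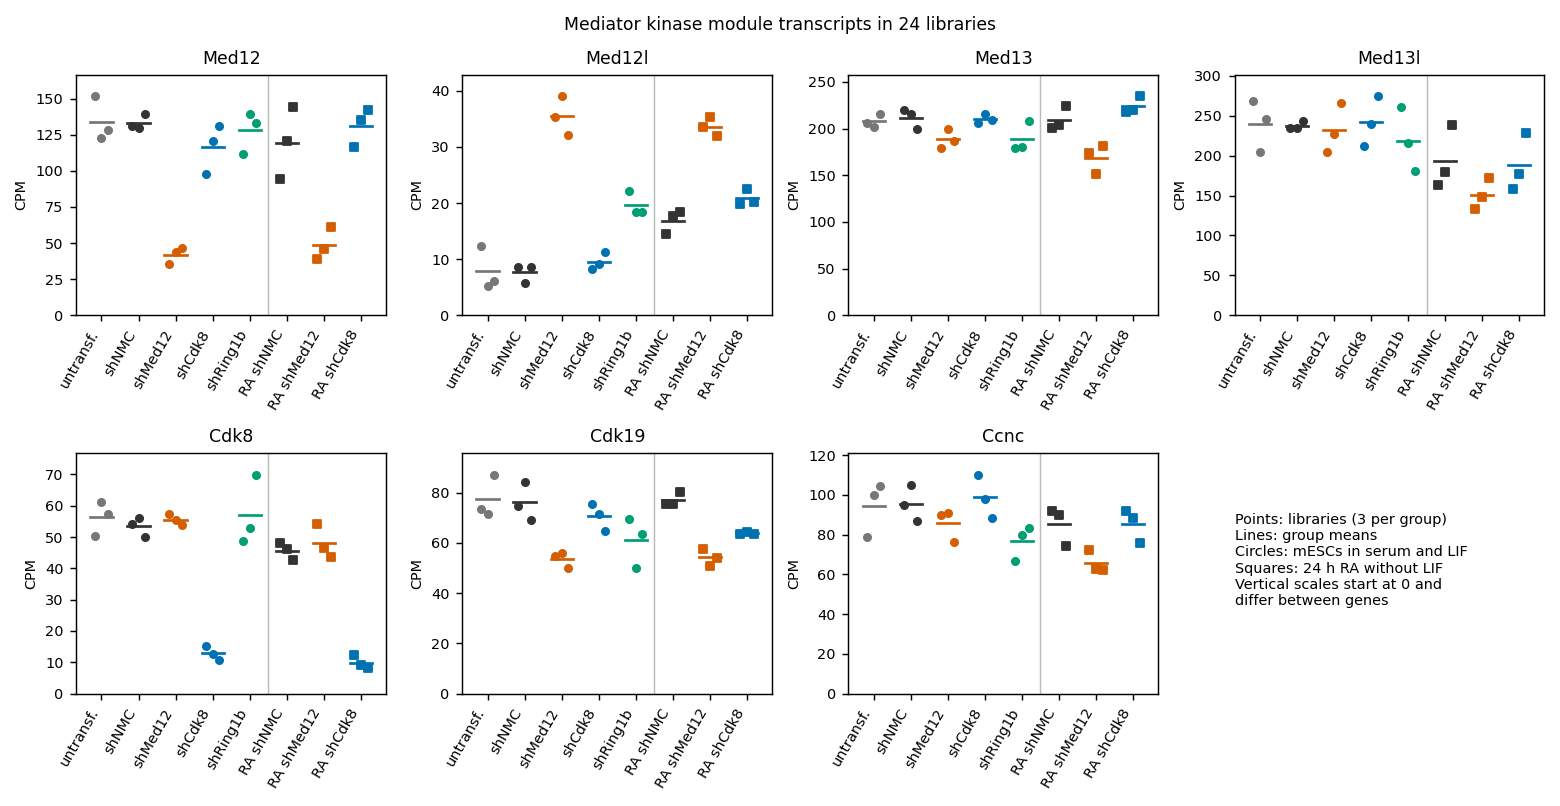
TMM-scaled CPM (vertical axes, each from 0) of the 7 module genes in 24 libraries of 8 groups (horizontal axis), with a line at each group mean; circles are mESCs and squares RA-treated cells. Med12 is low in shMed12 libraries (35.2 to 61.2 CPM), Cdk8 in shCdk8 libraries (8.21 to 15.2 CPM), and Med12l is highest in shMed12 libraries (31.9 to 39.0 CPM).

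Both targets fell in both states. Med12 stood at 35.2, 43.7 and 46.3 CPM in shMed12 mESCs and at 131, 129 and 140 CPM in shNMC mESCs, so 31.3% of the control level remained (log2 change -1.68, SE 0.16, edgeR quasi-likelihood test with Benjamini-Hochberg adjusted p = 4.0e-08). RA-treated shMed12 cells held 38.8, 45.6 and 61.2 CPM of Med12 against 94.1, 120 and 144 CPM with shNMC, and 40.6% remained (log2 -1.30, SE 0.16, edgeR adjusted p = 1.5e-06). No shMed12 library reached the lowest control of its state, and the test of the difference between the 2 effects did not pass (interaction log2 0.38, 95% interval -0.09 to 0.85, edgeR adjusted p = 0.40). Cdk8 stood at 15.2, 12.6 and 10.7 CPM in shCdk8 mESCs against 54.1, 56.1 and 50.1 CPM, 24.0% of control (log2 -2.06, SE 0.15, edgeR adjusted p = 8.8e-08). In RA-treated shCdk8 cells the libraries read 12.4, 9.04 and 8.21 CPM against 48.1, 46.0 and 42.7 CPM, a remainder of 21.7% (log2 -2.20, SE 0.15, edgeR adjusted p = 2.5e-08). Again no hairpin library reached a control. Neither hairpin moved the other's target past the test in mESCs: Cdk8 was 104% of control with shMed12 in mESCs (log2 0.06, 95% interval -0.25 to 0.36), and Med12 was 87.2% of control with shCdk8 (log2 -0.20, 95% interval -0.53 to 0.13).

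Med12l, the paralogue of Med12, rose where Med12 was lowered. Its libraries read 35.4, 39.0 and 32.2 CPM in shMed12 mESCs against 8.60, 5.74 and 8.63 CPM with shNMC, a 4.64-fold higher mean (log2 2.22, SE 0.22, edgeR adjusted p = 6.3e-08). After RA they read 33.6, 35.3 and 31.9 CPM against 14.5, 17.7 and 18.3 CPM, 1.99-fold higher (log2 0.996, SE 0.21, edgeR adjusted p = 0.00073). The groups did not overlap in either state. Of the 7 members, Med12l was the 1 that passed the test upward with shMed12 in mESCs, where 40.5% of all genes were called and 20.6% were higher. It was again the 1 member that rose after RA, where 41.9% were called and 21.3% were higher. A single rise among 7 members is no larger a share than that background. With shCdk8 it read 8.23, 9.13 and 11.3 CPM in mESCs, and the difference did not pass the test (log2 0.32, 95% interval -0.13 to 0.78, edgeR adjusted p = 0.46). After RA it read 19.8, 22.4 and 20.2 CPM with shCdk8, above all 3 controls, and again did not pass (log2 0.31, 95% interval -0.13 to 0.75, edgeR adjusted p = 0.43). The direct comparison of the 2 hairpins separated them: Med12l was higher with shMed12 than with shCdk8 by log2 1.89 in mESCs (SE 0.22, edgeR adjusted p = 6.1e-07; 35.8% of all genes called, 18.4% higher and 17.4% lower) and by log2 0.69 after RA (SE 0.21, edgeR adjusted p = 0.012; 41.4% called, 21.3% higher and 20.1% lower).

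**Figure D2:**
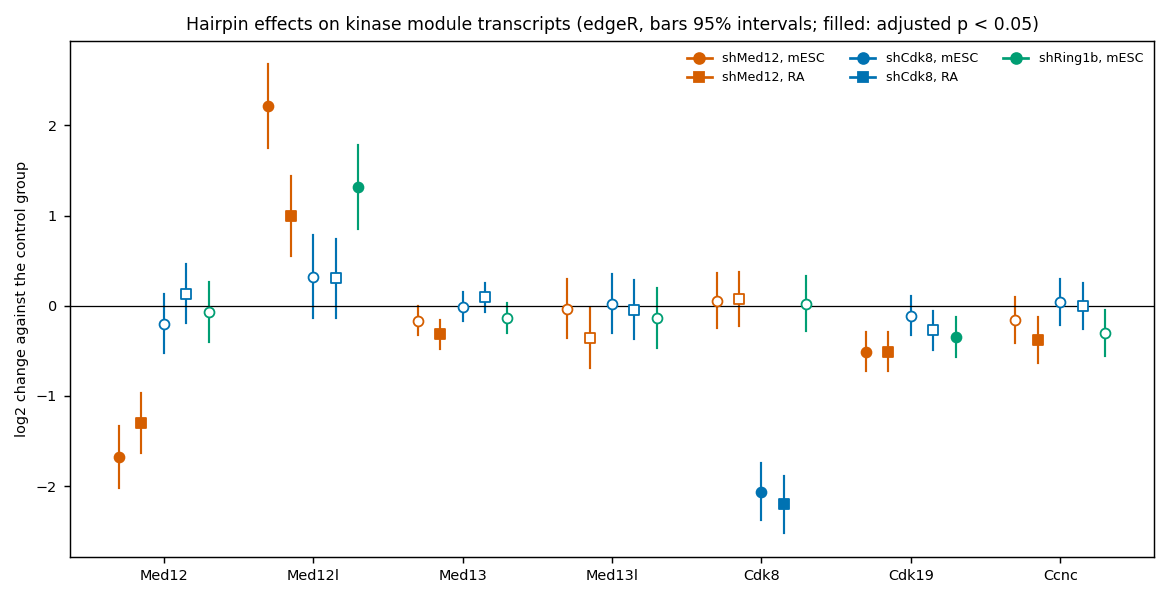
Log2 change of each module gene (horizontal axis) with each hairpin against its control group (shNMC of the same state, or untransfected cells for shRing1b), with 95% intervals from edgeR; filled symbols have an adjusted p under 0.05. Med12l is the 1 gene with filled symbols above 0, at 2.22 and 0.996 with shMed12 and 1.32 with shRing1b, and Cdk19 is below 0 with shMed12 at -0.51 in both states.

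The rise of Med12l came with higher levels of trophectoderm and fibroblast markers, and their part in it was not tested. In shMed12 mESCs the summed level of 9 trophectoderm markers was 571 to 742 CPM against 17.3 to 23.6 CPM with shNMC, and that of 10 fibroblast markers 341 to 386 CPM against 10.8 to 11.7 CPM. Of those tested, 9 of 9 and 8 of 9 rose. After RA the trophectoderm sum was 696 to 916 CPM against 36.9 to 48.4 CPM and the fibroblast sum 315 to 351 CPM against 13.3 to 16.1 CPM. In shMed12 mESCs most of the trophectoderm sum was keratins, Krt18 at 388 CPM, Krt8 at 147 CPM, Krt19 at 54.0 CPM and Krt7 at 24.0 CPM. The other trophectoderm markers stood lower. Hand1 was at 16.9 against 0.26 CPM with shNMC, Gata3 at 6.93 against 0.33 CPM and Cdx2 at 5.56 against 0.15 CPM. Dlx3 was at 1.94 against 0.65 CPM and Elf5 at 0.39 against 0.036 CPM. Most of the fibroblast sum was Tagln at 273 CPM and Acta2 at 59.0 CPM, both genes of contractile cells. The collagens also stood higher, Col1a1 at 10.1 against 1.02 CPM, Col3a1 at 6.59 against 0.0082 CPM, Col6a1 at 3.21 against 0.27 CPM and Col1a2 at 1.72 against 0.28 CPM. Postn was at 0.51 against 0.0066 CPM, Dcn at 0.37 against 0.0066 CPM and Lum at 0.11 CPM against no read, while Thy1 was lower at 3.48 against 7.39 CPM. The 10 pluripotency markers summed to 3546 to 3846 CPM there, below the 6178 to 6236 CPM of the controls. Markers of 2 further cell types did not rise as a set with shMed12. Of 7 extraembryonic endoderm markers, 3 fell and 0 rose in mESCs, and 4 fell and 0 rose after RA. Of 6 neural markers, 2 rose and 2 fell in mESCs, and 2 rose and 3 fell after RA. With shCdk8 in mESCs the trophectoderm sum was 25.2 to 25.9 CPM and the fibroblast sum 15.04 to 16.4 CPM.

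Igsf10, the 1 counted gene that shares words with Med12l, moved with it in some comparisons and not in others. It changed by log2 0.05 with shMed12 in mESCs (edgeR adjusted p = 0.85) and by -0.34 after RA (edgeR adjusted p = 0.15). With shCdk8, where Med12l did not pass, Igsf10 rose by log2 1.04 in mESCs (edgeR adjusted p = 0.0040) and by 0.87 after RA (edgeR adjusted p = 0.0061). It was lower with shMed12 than with shCdk8, where Med12l was higher, by log2 -0.98 in mESCs (edgeR adjusted p = 0.00034) and -1.22 after RA (edgeR adjusted p = 2.9e-05). After RA it rose in the same 2 lines as Med12l, shNMC (log2 0.74, edgeR adjusted p = 0.0029) and shCdk8 (log2 0.57, edgeR adjusted p = 0.014). Whether reads were counted by strand is not stated.

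The gain of Med12l was smaller than the loss of Med12. In mESCs shMed12 took 91.7 CPM from Med12 and Med12l gained 27.9 CPM, 30.4% of the loss in reads and 17.2% per kilobase of exon. After RA the loss was 70.9 CPM and the gain 16.8 CPM, 23.7% in reads and 13.4% per kilobase. The sum of the pair therefore stood at 77.3 ± 6.1 CPM against 141 ± 6.7 CPM in mESCs (mean ± SD, n = 3 each), 54.8% of control (exact permutation test, two-sided, p = 0.1, the smallest that 3 against 3 libraries can give). RA-treated cells had a sum of 82.1 ± 10 CPM against 136 ± 27 CPM, 60.3% of control (exact permutation test, two-sided, p = 0.1). Per kilobase the sums were 44.9% and 52.3% of control, and in each case no hairpin library reached a control library. The makeup of the pair shifted as well. Med12l supplied 5.41% of the pair's reads with shNMC, 5.38% in untransfected cells, 7.58% with shCdk8 and 46.1% with shMed12 in mESCs, and 12.5%, 13.8% and 41.4% with shNMC, shCdk8 and shMed12 after RA. Per kilobase the share with shMed12 was 32.6% in mESCs and 28.7% after RA, so Med12 remained the larger part of the pair per length.

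**Figure D3:**
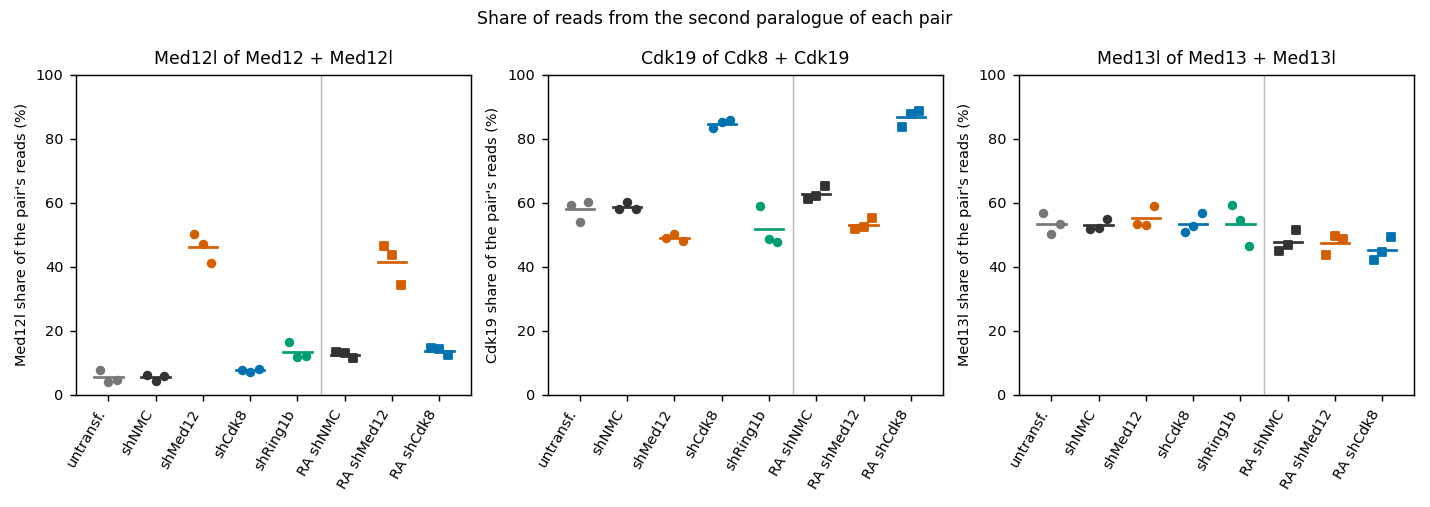
Share of each pair's reads that came from its second member (vertical axes, percent) in 24 libraries of 8 groups, with a line at each group mean; circles are mESCs and squares RA-treated cells. The Med12l share is 46.1% with shMed12 against 5.41% with shNMC in mESCs, the Cdk19 share 84.7% with shCdk8 against 58.7%, and the Med13l share lies between 42.1% and 59.2% in all libraries.

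For Cdk19, the paralogue of Cdk8, no rise was detected when Cdk8 was lowered. It read 75.5, 71.6 and 64.7 CPM in shCdk8 mESCs against 74.9, 84.3 and 69.2 CPM with shNMC, within the range of the controls but for 1 library (log2 -0.11, 95% interval -0.33 to 0.11, edgeR adjusted p = 0.63). After RA it read 63.3, 64.3 and 63.6 CPM against 75.4, 75.6 and 80.1 CPM, and all 3 libraries lay below the controls (log2 -0.27, 95% interval -0.49 to -0.05, edgeR adjusted p = 0.12). A fit on those 2 groups alone gave that last difference an edgeR adjusted p of 0.019. A rise above log2 0.11 in mESCs and any rise after RA lie outside these intervals. The sum of Cdk8 and Cdk19 was 64.4% of control in mESCs (83.5 ± 7.7 against 130 ± 11 CPM) and 60.1% after RA (73.7 ± 2.0 against 123 ± 0.91 CPM; exact permutation test, two-sided, p = 0.1 in each). Cdk19 supplied 58.7% of the pair's reads with shNMC and 84.7% with shCdk8 in mESCs, and 62.8% and 86.6% after RA, with the fall in Cdk8. Cdk8, the target of the hairpin, was the 1 member of 7 that passed the test with shCdk8 in either state. Of all genes, 3.66% were called in mESCs (2.24% higher, 1.42% lower) and 7.73% after RA (4.10% higher, 3.64% lower). These counts varied with the libraries and the fit: without 1 library the 596 genes called in mESCs became 170 to 282 and the 1259 after RA became 482 to 922, and fits on the 2 groups alone called 2334 and 2744. DESeq2 called the same number of members, 1 in each state. An unadjusted p under 0.05 was reached by 1 member in mESCs and 2 after RA, and by 18.2% and 22.4% of all genes. For Ccnc, the cyclin partner of both kinases, the values with shCdk8 were 110, 98.0 and 88.2 CPM in mESCs against 95.1, 105 and 86.8 CPM (log2 0.05, 95% interval -0.21 to 0.30).

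Cdk19 fell with the other hairpin. In shMed12 mESCs it read 54.6, 56.0 and 50.1 CPM against 74.9, 84.3 and 69.2 CPM, 70.3% of control (log2 -0.51, SE 0.11, edgeR adjusted p = 0.00056). With shMed12 and RA together it read 57.7, 50.9 and 54.0 CPM against 75.4, 75.6 and 80.1 CPM, 70.4% of control (log2 -0.51, SE 0.11, edgeR adjusted p = 0.00057). All shMed12 libraries lay below all controls in both states, and the interaction was log2 0.00084 (95% interval -0.31 to 0.31). With Cdk8 at 104% of control, the Cdk19 share of the kinase pair was 49.1% with shMed12 against 58.7% in mESCs. Directly against shCdk8, Cdk19 was lower with shMed12 in mESCs (log2 -0.40, SE 0.11, edgeR adjusted p = 0.0051), and after RA the difference did not pass (log2 -0.23, edgeR adjusted p = 0.080), though it did in a fit on those 2 groups alone (0.020) and without shMed12 library 1 (0.041). Med12 and Cdk19 were the 2 members of 7 that fell with shMed12 in mESCs, where 19.9% of all genes fell. Med12 is the target of the hairpin, so Cdk19 was the only fall among the untargeted members.

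After RA more of the module was lower with shMed12. There 4 of the 7 members fell, the target Med12 and Cdk19, Med13 and Ccnc, where 20.6% of all genes fell. The median log2 change of the 7 was -0.36 beside -0.0038 for all genes tested. The count and the median include Med12, whose fall the hairpin was designed to give, so neither compares the untargeted members with all genes. Med13, the subunit that docks the module on the core, read 173, 151 and 181 CPM against 200, 204 and 225 CPM (log2 -0.31, SE 0.08, edgeR adjusted p = 0.0027), with no overlap. Ccnc read 72.4, 62.8 and 62.4 CPM against 92.1, 89.8 and 74.4 CPM (log2 -0.38, SE 0.12, edgeR adjusted p = 0.018). The groups did not overlap for Ccnc, but its call was lost without shMed12 library 2 (edgeR adjusted p = 0.068), shMed12 library 3 (0.065) or shNMC library 1 (0.076). Med13l, at 134, 148 and 171 CPM against 163, 180 and 238 CPM, overlapped with the controls (log2 -0.36, 95% interval -0.69 to -0.03, edgeR adjusted p = 0.076, or 0.039 without shNMC library 1). In mESCs the same 3 genes did not pass: Med13 changed by log2 -0.17 (edgeR adjusted p = 0.096), Ccnc by -0.16 (0.32) and Med13l by -0.03 (0.90). The interaction did not pass for Med13 (log2 -0.15, 95% interval -0.38 to 0.08), Ccnc (-0.22, -0.58 to 0.14) or Med13l (-0.33, -0.79 to 0.14). Against RA-treated shCdk8 cells, Med13 was lower with shMed12 by log2 -0.41 (SE 0.08, edgeR adjusted p = 0.00026) and Ccnc by -0.37 (SE 0.12, edgeR adjusted p = 0.019, lost without shCdk8 library 1 or 2 or shMed12 library 2 or 3). The RA-treated shCdk8 and shMed12 libraries also differed without overlap in the balance of long and short genes. This is the median log2 level of long genes less that of short genes, each gene taken relative to its mean over all libraries. It was 0.0512 to 0.29 against -0.141 to 0.0417, and its part was not tested.

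Med12l rose after RA in control cells, and no other member passed there. Med12l went from 8.60, 5.74 and 8.63 CPM to 14.5, 17.7 and 18.3 CPM in shNMC cells (log2 1.14, SE 0.22, edgeR adjusted p = 0.00018), while 51.4% of all genes were called (27.3% higher, 24.1% lower). The trophectoderm sum rose with it, from a range of 17.3 to 23.6 CPM to one of 36.9 to 48.4 CPM (7 of 9 markers rose). Most of that sum after RA was the keratins Krt18 at 20.4 CPM and Krt8 at 6.99 CPM. Beside the trophectoderm sum, the overlapping gene Igsf10 rose by log2 0.74 (edgeR adjusted p = 0.0029). The part of either was not tested. In shCdk8 cells it went from 8.23, 9.13 and 11.3 CPM to 19.8, 22.4 and 20.2 CPM (log2 1.12, SE 0.22, edgeR adjusted p = 0.00019; 51.7% of all genes called, 26.7% higher), and Igsf10 rose by 0.57 (edgeR adjusted p = 0.014). In shMed12 cells, where it already stood at 32.2 to 39.0 CPM, it read 31.9 to 35.3 CPM after RA (log2 -0.08, 95% interval -0.52 to 0.36, edgeR adjusted p = 0.80; 37.1% of all genes called, 19.6% higher). The RA-treated controls thus reached less than the level that shMed12 cells had before RA, and the groups did not overlap. The difference between the 2 responses was called: the shMed12 by RA interaction of Med12l was log2 -1.22 (SE 0.30, edgeR adjusted p = 0.019), the 1 member among the 5.04% of all genes called (1.74% higher, 3.30% lower). That call was lost without RA shMed12 library 3 (edgeR adjusted p = 0.051), shMed12 mESC library 2 (0.055) or shNMC mESC library 2 (0.064), with log2 values of -1.18, -1.19 and -1.07. The shCdk8 by RA interaction called 0.0369% of all genes (0.0307% higher, 0.00614% lower) and no member, by edgeR, by DESeq2 or at an unadjusted p under 0.05, and for Med12l it was log2 -0.02 (95% interval -0.65 to 0.61).

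**Figure D4:**
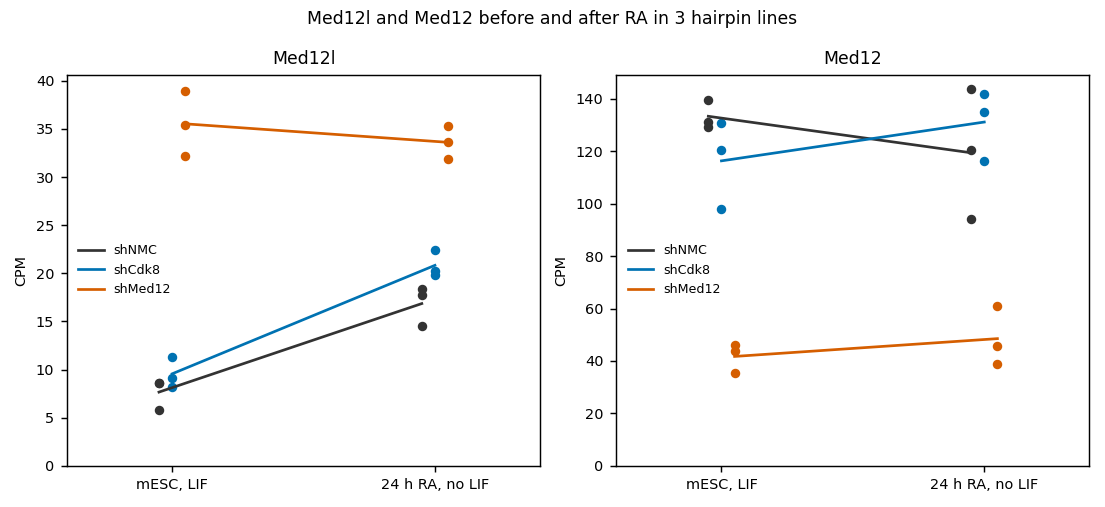
CPM of Med12l and Med12 (vertical axes, from 0) in mESCs and after 24 h of RA (horizontal axis) in shNMC, shCdk8 and shMed12 cells; points are libraries, lines join group means. Med12l goes from 7.66 to 16.9 CPM with shNMC and from 9.55 to 20.8 CPM with shCdk8, and stands at 35.5 and 33.6 CPM with shMed12.

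The remaining member calls after RA were falls in shMed12 or shCdk8 cells. In shMed12 cells, where 17.5% of all genes fell, Med13l went from 205, 227 and 266 CPM to 134, 148 and 171 CPM (log2 -0.62, SE 0.16, edgeR adjusted p = 0.0040). Ccnc went from 90.1, 90.9 and 76.3 CPM to 72.4, 62.8 and 62.4 CPM (log2 -0.38, SE 0.12, edgeR adjusted p = 0.019), a call lost without RA library 2 or 3 or mESC library 1 or 2. In shCdk8 cells, where 25.1% of all genes fell, Cdk8 went from 15.2, 12.6 and 10.7 CPM to 12.4, 9.04 and 8.21 CPM. That difference passed narrowly (log2 -0.37, SE 0.15, edgeR adjusted p = 0.045) with groups that overlap, and DESeq2 (adjusted p = 0.051), another scaling (0.055) and no filter (0.061) each ended the call, as did leaving out RA library 2 or 3 or mESC library 1 or 2. The same difference between long and short genes was 0.0512 to 0.29 in the RA-treated shCdk8 libraries and -0.181 to 0.0483 in shCdk8 mESCs, and its part was not tested. Med13l in shCdk8 cells changed by log2 -0.36 (edgeR adjusted p = 0.060), and by -0.37 (edgeR adjusted p = 0.036) with the replicate number as a block. It also passed without RA library 3 (edgeR adjusted p = 0.017), without mESC library 1 (0.043) and in a fit on the 2 groups alone (0.037). In shNMC cells Med13l stood at 163, 180 and 238 CPM after RA against 235, 235 and 243 CPM (log2 -0.30, 95% interval -0.63 to 0.03, edgeR adjusted p = 0.12, or 0.034 without RA library 3). Cdk8 in shNMC cells changed by log2 -0.23 (edgeR adjusted p = 0.20, or 0.037 in a fit on the 2 groups alone). Ccnc there changed by log2 -0.16 (edgeR adjusted p = 0.27). These shNMC values had the same direction as the calls. The interaction with shMed12 did not pass for Med13l (edgeR adjusted p = 0.48) or Ccnc (0.56). That of Cdk8 with shCdk8 did not pass either (log2 -0.14, 95% interval -0.58 to 0.29). Med12 and Med13 passed in none of the 3 lines.

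The Polycomb hairpin also went with higher Med12l. In shRing1b mESCs Med12l read 22.1, 18.5 and 18.4 CPM against 12.4, 5.15 and 6.05 CPM in untransfected cells, 2.49-fold higher with no overlap (log2 1.32, SE 0.23, edgeR adjusted p = 0.00059; 15.1% of all genes called, 9.68% higher and 5.42% lower). Library 3, whose Rnf2 level of 207 CPM went against its label, held 18.4 CPM of Med12l. That was close to the 18.5 CPM of library 2, where Rnf2 was 64.2 CPM. Without library 3, the change of Med12l was log2 1.36 (SE 0.25, edgeR adjusted p = 0.00036), and against shNMC it was log2 1.36 (SE 0.22, edgeR adjusted p = 0.00026). Library 1 of the untransfected cells was the high control, and without it the change was log2 1.82 (edgeR adjusted p = 1.7e-05). A fit on the 2 groups alone, which called 0 genes (1626 at an unadjusted p under 0.05), gave log2 1.34 (edgeR adjusted p = 0.23). Med12 stood at 95.6% of control here (log2 -0.07, 95% interval -0.40 to 0.27, and log2 -0.09 without library 3), so in this line Med12l rose without a detectable fall of its paralogue. The 9 trophectoderm markers summed to 50.7 to 111 CPM against 18.01 to 28.6 CPM (8 of 9 rose), the 10 fibroblast markers to 17.2 to 33.3 CPM against 10.5 to 17.4 CPM (4 of 9 tested rose) and the 7 extraembryonic endoderm markers to 27.2 to 491 CPM against 48.6 to 68.8 CPM (1 of 7 rose), and their part was not tested. Keratins made up most of the trophectoderm sum in shRing1b cells, Krt18 at 34.2 CPM, Krt8 at 20.5 CPM and Krt19 at 17.5 CPM. Cdk19 read 69.5, 50.0 and 63.4 CPM against 73.6, 71.4 and 87.1 CPM (log2 -0.34, SE 0.11, edgeR adjusted p = 0.033), and the change was log2 -0.37 without library 3 (edgeR adjusted p = 0.022). That call was lost without untransfected library 3 (edgeR adjusted p = 0.18), without shRing1b library 2 (0.15) and in the fit on the 2 groups alone (0.49). For Ccnc the values were 67.0, 79.7 and 83.4 CPM against 78.6, 100 and 105 CPM (log2 -0.30, edgeR adjusted p = 0.11, 0.056 without shRing1b library 3 and 0.036 without untransfected library 1).

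Over the 8 groups, Med12l was thus ordered from shMed12 mESCs (35.5 ± 3.4 CPM) and RA shMed12 (33.6 ± 1.7 CPM) through RA shCdk8 (20.8 ± 1.4), shRing1b (19.6 ± 2.1) and RA shNMC (16.9 ± 2.1) to shCdk8 (9.55 ± 1.6), untransfected (7.88 ± 4.0) and shNMC mESCs (7.66 ± 1.7). The first 2 of these groups overlapped, as did RA shCdk8 with shRing1b and the last 3 with each other. By likeness over all 24 libraries among 10282 genes of sufficient level, the genes whose log2 CPM followed Med12l most closely were Col5a1 (Pearson r = 0.957), Osbpl5 (r = 0.955) and Stard13 (r = 0.945). For Med12 they were Hydin (r = 0.966), Nos3 (r = 0.952) and Cmklr1 (r = 0.949), and for Ccnc the closest was Osgin2 (r = 0.923). For Med13, Cdk19 and Med13l the closest genes were Zfp329 (r = 0.940), Nutf2 (r = 0.869) and Ankrd11 (r = 0.900). These correlations are descriptions over libraries that share groups, and those of Med12 and Med12l span the hairpin groups that stand apart.

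Within groups some members moved against each other from library to library. After group means were removed, Med13l and Ccnc had a correlation of -0.846 over 24 libraries, Med13l and Cdk8 of -0.837, and Cdk8 and Ccnc of 0.773. The same libraries differed in the balance of long and short genes. In each library, log2 CPM was taken relative to each gene's mean over the 24 libraries. The balance is the median of 2263 long genes (exons of at least 6 kb) less that of 3593 short genes (at most 2 kb). Its group means ran from -0.07 in shMed12 mESCs to 0.205 in RA-treated shCdk8 cells. With that difference Med12 had a within-group correlation of 0.812, Med13l of 0.756, Med13 of 0.531, Ccnc of -0.600 and Cdk8 of -0.692, and Med12l and Cdk19 of 0.411 and -0.05. Med12l has 12.5 kb of exon, Med13 10.5 kb, Med13l 9.32 kb, Med12 7.06 kb, Cdk19 5.81 kb, Ccnc 4.37 kb and Cdk8 3.01 kb. Cdk19, Ccnc and Cdk8 thus lie between the 2 length classes. The longest member, Med12l, had a lower correlation than Med12, Med13l and Med13. The part of this measure in the spread of single members was not tested.

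Calls in the core of Mediator went in both directions with shMed12. Among 26 core subunits, all tested, shMed12 went with 2 rises and 6 falls in mESCs, where 40.5% of all genes were called (median log2 0.04 beside -0.01 for all genes). After RA there were 4 rises and 3 falls, where 41.9% of all genes were called (median 0.10 beside -0.0038). Neither count is a larger share than its background. Med14, the scaffold subunit that joins the parts of the core, rose in both: it was 131 CPM against 76.0 CPM in mESCs (log2 0.79, SE 0.11, edgeR adjusted p = 4.6e-06) and 150 CPM against 101 CPM after RA (log2 0.57, SE 0.11, edgeR adjusted p = 0.00020). In mESCs Med11 also rose (log2 0.59, edgeR adjusted p = 0.0028) and Med24, a tail subunit, fell (log2 -0.34, edgeR adjusted p = 0.0028). After RA Med22 rose (log2 0.63, edgeR adjusted p = 1.1e-05) and Med30 fell (log2 -0.56, edgeR adjusted p = 0.00020). With shCdk8 none of the 26 passed in mESCs by edgeR or by DESeq2 (3 at an unadjusted p under 0.05). Of all genes, 3.66% were called there and 18.2% had an unadjusted p under 0.05. After RA, where 4.10% of all genes were higher, 1 of the 26 rose, Med14 (log2 0.38, SE 0.11, edgeR adjusted p = 0.034). None of these counts is a larger share than its background. After RA in shNMC cells 11 core subunits fell and 1 rose, where 24.1% of all genes fell and 27.3% rose (median log2 -0.14 beside 0.02 for all genes), led by Med18 (log2 -0.98, edgeR adjusted p = 4.1e-06), Med22 (log2 -0.61, edgeR adjusted p = 1.1e-05) and Med20 (log2 -0.51, edgeR adjusted p = 5.1e-05).

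The other kinases of transcription and their cyclins gave a second frame for Cdk8, Cdk19 and Ccnc. Of 13 such genes, shMed12 went with 1 rise and 3 falls in mESCs, where 40.5% of all genes were called. After RA, where 41.9% were called, 2 rose and none fell by edgeR (2 were lower at an unadjusted p under 0.05, and 1 by DESeq2). The 3 that fell in mESCs were Cdk11b (log2 -0.31, edgeR adjusted p = 0.00041), which encodes a kinase of transcription and splicing, and the cyclins Ccnt2 (log2 -0.37, edgeR adjusted p = 0.00096) and Ccnk (log2 -0.27, edgeR adjusted p = 0.0040). Cdk9, the kinase that releases paused polymerase, rose with shMed12 after RA (61.1 against 46.9 CPM, log2 0.38, edgeR adjusted p = 0.0023). With shCdk8 1 of the 13 fell in each state, where 1.42% of all genes fell in mESCs and 3.64% after RA, and it was Cdk11b both times (log2 -0.28, edgeR adjusted p = 0.016, and -0.30, edgeR adjusted p = 0.0054). After RA in shNMC cells 9 of the 13 fell, where 24.1% of all genes did, and none rose, by edgeR, by DESeq2 or at an unadjusted p under 0.05 (median log2 -0.38 beside 0.02 for all genes), against 1 rise and no fall among the 7 module genes.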

How the data were processed

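The authors deposited unscaled whole-number counts of reads for each gene symbol of a library. Per the labels the libraries were strand-specific poly-A RNA with 50 bp reads. The submitters' processing notes name build mm9 and the tools HTSeq 0.6.1p1, STAR 2.3.1z13, bcl2fastq 1.8.4, DESeq2 1.6.3 and SAMtools 1.2. Annotation and strand setting are not given in those notes or in any other source used here. Left out were the 5 entries that name no gene (35.9% to 58.7% of all reads).

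All 24 libraries were fitted with edgeR 4.0.16 (R 4.3.3): filterByExpr by group, TMM scaling, robust quasi-likelihood F tests on 1 mean per group (16 residual degrees of freedom, common biological coefficient of variation 0.145), two-sided, Benjamini-Hochberg adjusted over 16280 genes, with adjusted p under 0.05 called. The SE was taken as the absolute log2 change over the root of F. CPM values use TMM-scaled totals. In these libraries 3 counts equal 0.0464 to 0.12 CPM. Levels per kilobase divide by the union of coding transcripts' exons in GENCODE M21, and shared words and runs come from the same release. Replicates were not duplicates (mean chi-square per gene at least 7.17). Scripts were tested on simulated data. Alternatives were DESeq2 1.42.0, median-ratio scaling, no filter, only the groups compared, a replicate block, each library left out, and shNMC as control for shRing1b.

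The genes named were the 7 members, Rnf2, up to 3 called members of lowest p in the core and kinase lists, and the 3 genes most like each member (log2 CPM with a prior count of 2, mean of at least 5 CPM over all libraries, gene models without a name left out), of which up to 3 are printed for 6 members; that of Cdk8 is not reported here. Igsf10 and the fibroblast and trophectoderm markers named were singled out after their values were seen. The members, lists and comparisons were chosen with earlier results of these data known. Replicate numbers come from the labels: residuals of same-numbered libraries correlated above 0.1 in all 3 pairs for mESC shMed12 and mESC shCdk8 (lowest 0.157), RA and mESC shCdk8 (0.169), RA shCdk8 and RA shNMC (0.287), RA shNMC and mESC shCdk8 (0.143), and RA shNMC and mESC shMed12 (0.158), and not for the other pairs of groups.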

Additional observations from a re-analysis of the deposited data

Results flagged for a closer look

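The difference between the effects of shMed12 on Med12l in mESCs and in RA-treated cells passed a test of the difference itself with all libraries. The interaction was log2 -1.22 (SE 0.30, edgeR adjusted p = 0.019), with Med12l 4.64-fold higher with shMed12 in mESCs and 1.99-fold higher after RA. All 3 shMed12 libraries lay above all 3 controls in each state, and the control level itself rose from 7.66 to 16.9 CPM. The call was lost without RA shMed12 library 3 (edgeR adjusted p = 0.051), shMed12 mESC library 2 (0.055) or shNMC mESC library 2 (0.064).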

How the results depend on the processing

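All 27 member calls kept their direction under each alternative run. Changed settings of normalization and filter moved no count of called genes by over 1.5 times. DESeq2 called 1151 genes for shCdk8 in mESCs, 1245 for the shMed12 by RA interaction and 27 for the shCdk8 by RA interaction. Fits on only the groups compared called 2334 genes for shCdk8 in mESCs, 2744 after RA, 2237 and 38 for the shMed12 and shCdk8 interactions, 0 for shRing1b (1626 at an unadjusted p under 0.05; DESeq2 on all libraries called 2934) and 0 for shNMC against untransfected cells (422 unadjusted; DESeq2 called 1). Leaving out 1 library gave 170 to 282 called genes for shCdk8 in mESCs against 596, 482 to 922 after RA against 1259, 1328 (without untransfected library 3) to 3900 (without shRing1b library 3) for shRing1b against 2459, and 489 to 830 and 3 to 6 for the shMed12 and shCdk8 interactions against 820 and 6. Per kilobase, the pair sums were 44.9% for Med12 and Med12l with shMed12 in mESCs, and 53.2% and 50.2% for Cdk8 and Cdk19 with shCdk8 in mESCs and after RA. These per-kilobase sums divide each gene by its exon length, which gives less weight to the longer paralogue, Med12l or Cdk19. The cause of the shifts in counts of called genes was not tested. Member values that changed sign were all short of the threshold: in the shMed12 by RA interaction, Cdk19 was -0.00039 with median-ratio scaling, -0.031 with no filter, -0.040 with only the groups compared and -0.00075 with the replicate block, and Cdk8 was -0.011 with no filter and -0.020 with only the groups compared; Med13 was 0.0094 for RA in shNMC cells with no filter, and Med12l 0.031 for shNMC against untransfected cells with the replicate block. Leaving out 1 library turned the sign of 25 uncalled log2 values, with these ranges: for shCdk8 after RA, Med13l (-0.20 to 0.12), Ccnc (-0.10 to 0.077), Med12 (-0.011 to 0.28); for the shCdk8 by RA interaction, Med12l (-0.12 to 0.16), Med13l (-0.23 to 0.093), Ccnc (-0.15 to 0.027); for shMed12 after RA, Cdk8 (-0.043 to 0.14); for RA in shMed12 cells, Cdk19 (-0.049 to 0.059); for the shMed12 by RA interaction, Cdk8 (-0.12 to 0.086), Cdk19 (-0.10 to 0.044); for RA in shNMC cells, Med13 (-0.031 to 0.045), Cdk19 (-0.013 to 0.11); for shRing1b, Med12 (-0.13 to 0.047), Cdk8 (-0.14 to 0.13); for shNMC against untransfected cells, Med12 (-0.070 to 0.099), Med12l (-0.28 to 0.46), Med13l (-0.12 to 0.084), Ccnc (-0.091 to 0.099), Cdk19 (-0.092 to 0.072), Med13 (-0.0080 to 0.057); for shCdk8 in mESCs, Med13 (-0.037 to 0.028), Ccnc (-0.026 to 0.12), Med13l (-0.076 to 0.12); for shMed12 against shCdk8 in mESCs, Med13l (-0.16 to 0.063); for shMed12 in mESCs, Med13l (-0.12 to 0.054). The replicate block changed no member call other than that of Med13l for RA in shCdk8 cells and no count of called genes by over 1.5 times. Med12l, the lowest member, had 627 to 5502 reads over the 3 libraries of a group.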
